A study of Mus musculus with 2 samples.

Results

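The 31 genes described here are the piRNA pathway and its associated transposon silencing factors, taken by name from the 32285 genes of both libraries; all 31 were present. They comprise 3 PIWI genes, 7 genes of piRNA precursor processing, 8 germ granule and secondary cycle factors, 5 further Tudor domain genes, 2 transcriptional regulators of the pathway, 4 nuclear silencing factors and the Tex19 pair. Transcripts were counted by droplet sequencing in single THY-1+ germ cells of the mouse, a culture in which spermatogonial stem cells renew, after 48 h with 20 ng/ml FGF9 (FGF9-treated, 1 library) or 0 ng/ml FGF9 (control, 1 library). Both came from established cultures at passages 9 to 12, derived from testes of male C57 LacZ pups about a week old sorted for THY-1 and kept on STO fibroblasts as feeders, in medium with 1 ng/ml FGF2, 150 ng/ml GFRA1 and 20 ng/ml GDNF. For the treatment the medium was changed to one with FGF9, or for control cells to one free of growth factors according to the study, while the labels do not address GDNF and FGF2 over this time. A label of the FGF9-treated library also gives another upper passage. Cells of 1 library are not replicates, and nothing ties them to single animals.

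piRNAs are small RNAs of the germ line that are bound by PIWI proteins and guide them to transposon transcripts. Precursor transcripts are cut and trimmed at mitochondria and in germ granules, where slicing of transposon RNA makes further piRNAs. In the nucleus of fetal male germ cells the PIWI protein MIWI2 (Piwil4) directs DNA methylation to transposons, whereas MILI (Piwil2) acts in the cytoplasm and MIWI (Piwil1) from meiosis onwards, when the transcription factor A-MYB (Mybl1) switches on a large second class of piRNA precursors.

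Germ cells were barcodes with at least 2000 genes, at most 20% mitochondrial counts and under 40 counts of the fibroblast genes Vim and S100a6 together. This left 4537 of 5959 FGF9-treated and 4157 of 5312 control barcodes, with 67068085 and 67689739 UMIs (unique molecular identifiers, each marking 1 captured transcript) in FGF9-treated and control cells. Median depth per cell was 13067 UMIs in FGF9-treated and 14824 UMIs in control cells. Of the cells near the fibroblast limit, 1 in each library had 20 to 39 counts of both genes together and 3 in each library had 40 to 59. Libraries shared 11 barcodes, 10 of them among the germ cells. CPM is a gene's UMIs scaled to a total of 1000000 over the library's germ cells. Dazl, a germ cell RNA-binding protein, stood at 1823 CPM in FGF9-treated and 1729 CPM in control cells. The list of 7 germ cell markers with Dazl summed to 2361 and 2260 CPM in them. The feeder list of 9 genes summed to 193 CPM in FGF9-treated and 136 CPM in control cells. It holds Vim and S100a6, which the filter itself limits. Of this list, the collagen Col3a1 stood at 0.790 and 0.355 CPM, but Lgals1 at 137 and 95.3 CPM. The 63 FGF9-treated and 31 control barcodes above the fibroblast limit are called feeder-like and serve as the background for germ cell genes. In these barcodes, scaled to their own total, the feeder list summed to 18843 and 13838 CPM and the germ cell list to 153 and 402 CPM.

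The promoter windows of 4 genes, chosen among those described below, are printed first. Piwil4 was taken for its level and its cell state. Mael was taken as a germ granule gene with a lower level, though within 1.5-fold, in the FGF9-treated library. Tex19.1 and Tex19.2 were taken as neighbours that varied together along the state score described below. Windows of Tdrd9 and Pld6, which were lower past 1.5-fold, were available but are not printed. Windows run from 250 bases before to 50 bases after the transcription start (RefSeq, GRCm38.p6), 5′ to 3′ on the gene's strand, and capitals mark CpG dinucleotides, the sites of DNA methylation in mammals.
Piwil4 (chr9:14740623-14740922, minus strand): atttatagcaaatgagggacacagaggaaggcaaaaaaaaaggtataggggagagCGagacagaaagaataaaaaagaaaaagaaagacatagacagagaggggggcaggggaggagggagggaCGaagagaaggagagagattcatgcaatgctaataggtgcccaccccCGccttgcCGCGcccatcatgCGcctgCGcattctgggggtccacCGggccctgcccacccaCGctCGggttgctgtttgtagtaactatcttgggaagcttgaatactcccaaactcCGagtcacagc
Mael (chr1:166238695-166238994, minus strand): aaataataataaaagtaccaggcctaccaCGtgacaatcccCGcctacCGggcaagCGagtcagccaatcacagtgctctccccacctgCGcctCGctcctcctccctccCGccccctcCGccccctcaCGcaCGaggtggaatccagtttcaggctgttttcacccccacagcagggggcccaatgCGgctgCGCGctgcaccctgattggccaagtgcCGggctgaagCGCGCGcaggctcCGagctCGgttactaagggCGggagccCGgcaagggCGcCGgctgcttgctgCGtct
Tex19.1 (chr11:121145893-121146192, plus strand): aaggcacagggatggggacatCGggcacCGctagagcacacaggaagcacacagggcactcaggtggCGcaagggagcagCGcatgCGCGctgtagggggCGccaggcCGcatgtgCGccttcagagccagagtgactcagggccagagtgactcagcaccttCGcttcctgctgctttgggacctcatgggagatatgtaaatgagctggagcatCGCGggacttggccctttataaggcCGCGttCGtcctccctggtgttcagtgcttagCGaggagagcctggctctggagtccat
Tex19.2 (chr11:121118628-121118927, minus strand): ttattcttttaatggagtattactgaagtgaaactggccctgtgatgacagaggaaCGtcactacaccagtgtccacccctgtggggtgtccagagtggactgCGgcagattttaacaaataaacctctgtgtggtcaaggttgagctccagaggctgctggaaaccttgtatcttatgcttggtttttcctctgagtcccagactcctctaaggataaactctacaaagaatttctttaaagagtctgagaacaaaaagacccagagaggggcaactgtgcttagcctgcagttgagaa

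The printed windows held 24 CpG for Mael, 16 for Tex19.1, 11 for Piwil4 and only 2 for Tex19.2. The neighbouring Tex19 genes thus differ widely in this feature. Piwil4 has another RefSeq start, whose window (chr9:14718338-14718637, minus strand) held 0 CpG and for that reason was not printed. RefSeq windows were matched for 23 of the 31 genes, 33 windows in all, since some genes have several starts. Their median was 18 CpG, against 7 CpG over all 32851 windows of this length. At least 10 CpG were found in 25 of the 33 windows and in 43.5% of all windows. The E-box CACGTG, whose reverse complement is the same, lay in 11 of the 33 windows, in those of Piwil1, Pld6, Mov10l1, Ddx4, Mael, Fkbp6, Tdrd1, Tdrd9 and Dnmt3l, and in 7.15% of all windows. It contains a CpG itself, and among windows with at least 10 CpG it lay in 10 of 25 of these genes' windows and in 10.9% of all. These counts include overlapping windows of 1 gene, a pair for Fkbp6 and a pair for Tdrd1, which share bases. By gene, over windows of any CpG count, it was 9 of 23, with no share by gene over all genes set beside it. The window of Dnmt3l with this motif held 4 CpG. The MYB motif TAACNG on either strand was present in 7 of the 33 windows, those of Piwil1, Mov10l1, Tdrkh, Mael, Tdrd12, Tdrd5 and Tdrd7, and in 23.3% of all windows. The ETS motif CCGGAAG was in 4 windows of 3 genes (8.86% of all) and the cyclic AMP motif TGACGTCA in 0 (1.79% of all). These are matches of letters and not measured binding.

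Spermatogonia of both libraries carried nearly the whole pathway. Levels are given as CPM without division by gene length, because each transcript was counted at its 3′ end. At least 100 CPM were reached in both libraries by 11 genes, 10 to 100 CPM by 13, and 7 stayed under 10 CPM in at least 1 library. Together the 31 genes made up 3334 CPM in FGF9-treated and 3931 CPM in control cells. The low group held genes known from meiosis, spermatids and fetal life: Piwil1, Mybl1, Btbd18, Tdrd6, Tdrd9, Spocd1 and Dnmt3l.

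**Figure D1:**
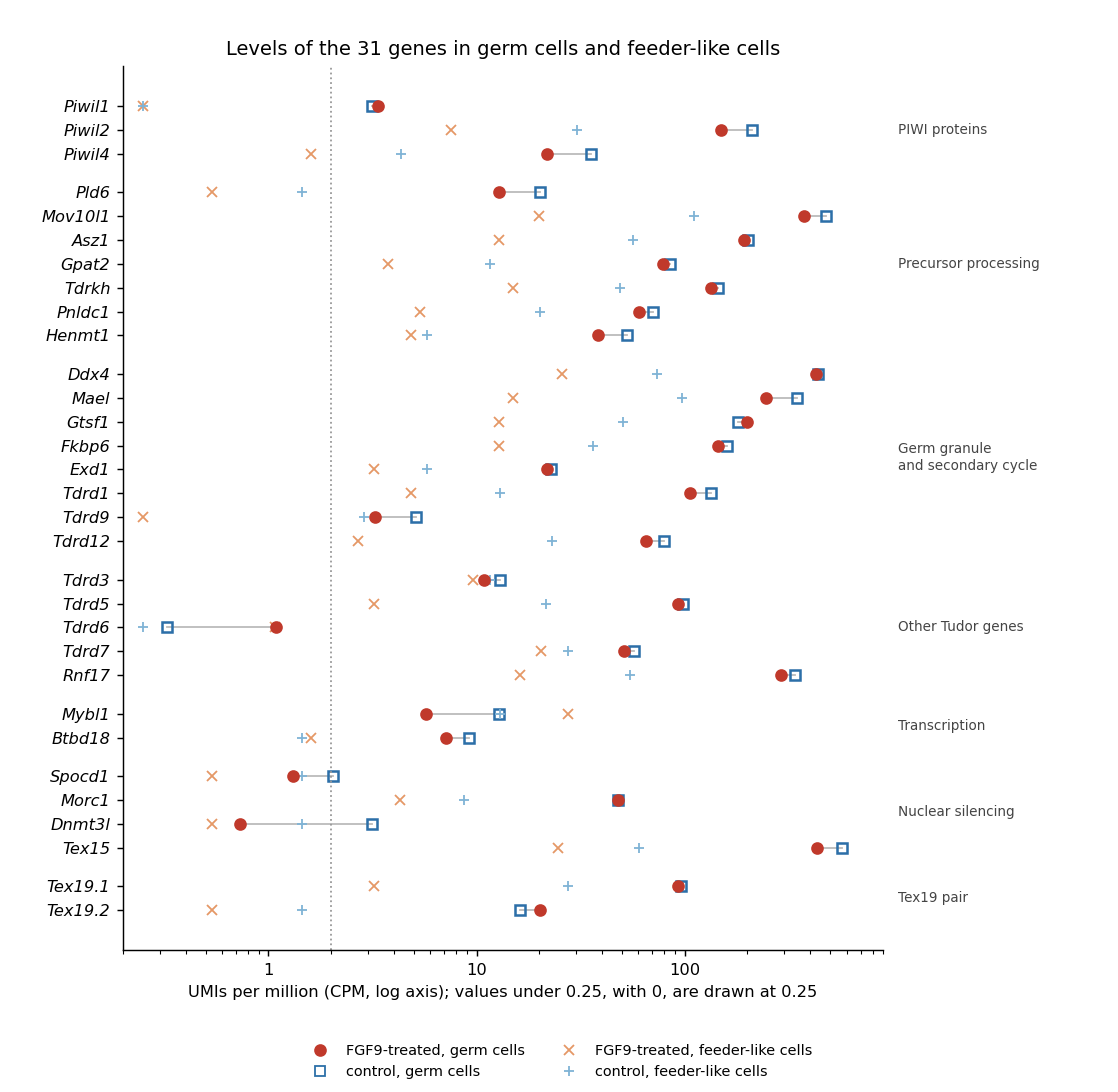
Levels of the 31 genes on a log axis (CPM), grouped by role, with filled circles for FGF9-treated germ cells, open squares for control germ cells, and crosses and plus signs for FGF9-treated and control feeder-like cells. Tex15 was highest at 432 and 571 CPM in FGF9-treated and control germ cells, and Piwil1 stood near 3 CPM in both. Mybl1 had more CPM in feeder-like than in germ cells of the FGF9-treated library (27.4 against 5.73 CPM). In the control library it was near equal in them (13.0 CPM from 9 feeder-like UMIs against 12.8 CPM).

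Among the PIWI genes, Piwil2 (chr14:70372477-70429383) had 10056 UMIs or 150 CPM (95% Poisson interval 147 to 153) in FGF9-treated cells and 14222 UMIs or 210 CPM (207 to 214) in control cells. Piwil4 (chr9:14696230-14740733) had 1467 UMIs or 21.9 CPM in FGF9-treated and 2405 UMIs or 35.5 CPM in control cells. Piwil1 (chr5:128702524-128755474) had 225 UMIs or 3.35 CPM in FGF9-treated and 212 UMIs or 3.13 CPM in control cells. Spermatogonia thus held the PIWI genes of the fetal and cytoplasmic branches at levels far above that of the meiotic one. Piwil1 had 0 UMIs in feeder-like cells of either library. These and all other gene coordinates are from the GENCODE vM21 annotation of GRCm38.

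The processing genes were all present. Mov10l1, the RNA helicase that binds piRNA precursors, stood at 375 CPM in FGF9-treated and 476 CPM in control cells. Asz1 (GASZ), a scaffold of the mitochondrial outer membrane, stood at 194 and 202 CPM in FGF9-treated and control cells, and Tdrkh, the partner of the trimming enzyme, at 134 and 145 CPM. Pnldc1, the trimming exonuclease, had 60.1 CPM in FGF9-treated and 70.5 CPM in control cells, and Henmt1, which methylates the 3′ end of mature piRNAs, 38.3 and 52.9 CPM. Gpat2, a mitochondrial acyltransferase homologue needed for primary piRNAs, had 78.9 and 85.3 CPM in them. The lowest of the 7 was Pld6, the mitochondrial endonuclease that makes the 5′ ends, with 12.9 CPM in FGF9-treated and 20.1 CPM in control cells.

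Among the germ granule genes, the RNA helicase Ddx4 (VASA) stood at 426 CPM in FGF9-treated and 437 CPM in control cells. Mael (Maelstrom) stood at 246 CPM in FGF9-treated and 346 CPM in control cells, Gtsf1, a small zinc finger cofactor of PIWI slicing, at 200.3 and 179.9 CPM, and the cochaperone Fkbp6 at 145 and 160 CPM. Tdrd1, a scaffold that binds MILI, had 106 CPM in FGF9-treated and 134 CPM in control cells. Tdrd12 had 65.1 and 79.6 CPM in them and Exd1 21.8 and 22.7 CPM. Tdrd9, the helicase partner of MIWI2, was far below them at 3.24 CPM in FGF9-treated and 5.13 CPM in control cells.

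Of the other Tudor genes, Rnf17 (Tdrd4) had 289 CPM in FGF9-treated and 339 CPM in control cells, Tdrd5 93.3 and 98.1 CPM and Tdrd7 51.0 and 57.2 CPM. Tdrd6, a chromatoid body protein of spermatids, had 73 UMIs (1.09 CPM) in FGF9-treated and 22 UMIs (0.325 CPM) in control cells. Tdrd3, a broadly expressed Tudor protein, had 10.9 and 13.0 CPM in FGF9-treated and control cells and 9.66 and 11.6 CPM in feeder-like cells of these libraries. It was therefore hardly a germ cell gene here.

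The nuclear arm was uneven. Tex15, a partner of MIWI2, was the highest of all 31 genes, with 432 CPM in FGF9-treated and 571 CPM in control cells, and Morc1, an ATPase needed for transposon methylation in fetal germ cells, had 47.9 and 48.0 CPM in them. Spocd1, which links MIWI2 to the methylation machinery, had only 88 and 138 UMIs (1.31 and 2.04 CPM) in FGF9-treated and control cells. Dnmt3l, the catalytically inactive cofactor of de novo DNA methyltransferases, had 49 UMIs (0.731 CPM) in FGF9-treated and 212 UMIs (3.13 CPM) in control cells. Tex19.1 and Tex19.2, mammalian proteins that restrain retrotransposons, had 92.4 and 20.3 CPM in FGF9-treated and 96.5 and 16.2 CPM in control cells.

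Against feeder-like cells of the same library, 25 of the 31 genes stood over 4-fold higher in FGF9-treated germ cells and 17 in control germ cells, where the feeder-like cells held more of these transcripts. The 6 that did not in the FGF9-treated library were Tdrd3, Tdrd6, Tdrd7, Mybl1, Spocd1 and Dnmt3l. In the control library Tdrd3, Tdrd7, Mybl1, Spocd1 and Dnmt3l again stayed under 4-fold. Tdrd6 passed there on 22 germ cell UMIs and 0 feeder-like UMIs. Asz1, Tdrkh, Pnldc1, Mael, Gtsf1, Exd1, Tdrd9, Tdrd12 and Tex19.1 were also under 4-fold there. For example, Mael had 346 CPM in germ cells against 96.8 CPM in the 31 feeder-like cells. Some passes rested on few feeder-like UMIs, such as those of Pld6 and Tex19.2 with 1 UMI in each library. The share of all genes past this limit was not taken, so the counts of 25 and 17 genes have no background. Mybl1 had 51 UMIs (27.4 CPM) in FGF9-treated and 9 UMIs (13.0 CPM) in control feeder-like cells. The 31 genes summed to 262 CPM in FGF9-treated and 823 CPM in control feeder-like cells, below the germ cell sums but not 0, and how much of this was free RNA or mixed droplets was not tested.

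Cells were then thinned at random to 5000 UMIs each, so that shares of cells could be compared at 1 depth. This left out 22 FGF9-treated and 16 control cells. Ddx4 was found in 86.8% (95% exact binomial interval 85.7 to 87.7) of FGF9-treated and 87.7% (86.7 to 88.7) of control cells, against 7.94% of FGF9-treated and 9.68% of control feeder-like cells at that depth. Piwil2 was found in 51.3% (49.8 to 52.7) of FGF9-treated and 61.9% (60.4 to 63.4) of control cells, against 4.76% and 16.1% of feeder-like cells. Piwil4 was found in 10.3% (9.38 to 11.2) of FGF9-treated and 15.5% (14.4 to 16.6) of control cells, and in none of the 63 FGF9-treated and 31 control feeder-like cells, for which 0 cells still allow up to 4.76% and 9.68%. Without thinning, Piwil4 was found in 25.3% of FGF9-treated and 38.5% of control cells, and in 4.76% and 6.45% of feeder-like cells.

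At this depth 8 genes were found in at least 50% of FGF9-treated cells and 9 in at least 50% of control cells, and a cell held a median of 9 of the 31 genes in the FGF9-treated and 11 in the control library. Without thinning 16 and 18 genes reached that share in FGF9-treated and control cells. For most genes the spread over cells was close to that of random sampling: the variance divided by the mean, which is 1 for Poisson counts, had a median of 1.07 in FGF9-treated and 1.05 in control cells. Piwil4 had 1.09 in both libraries and Mybl1 1.12 in FGF9-treated and 1.04 in control cells. Kit, a state marker used below to define a class of cells, had 1.16 in both. Stra8, another such marker, lay closer to 1 than Kit, and Neurog3 had 1.17 in FGF9-treated and 1.27 in control cells. With so few UMIs per cell, a ratio near 1 cannot tell an even spread from a subset. A low share of cells with Piwil4 or Mybl1 does not by itself mark a subset, and their ratios do not exclude one. The ratio exceeded 1.2 in both libraries for Mov10l1, Rnf17, Tex15 and Tex19.1. Tex15 had 2.02 in both, with up to 20 UMIs in a thinned FGF9-treated and 17 in a control cell. Tex19.1 had 1.498 in FGF9-treated and 1.48 in control cells, and was found in 29.5% of FGF9-treated cells where its mean would give 34.9% under Poisson sampling, and in 32.9% of control cells where it would give 38.7%.

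The comparison of FGF9-treated with control cells asked which members differ after 48 h. Each ratio is the log2 of CPM in FGF9-treated cells over CPM in control cells, with an exact 95% interval that covers counting error alone. With 1 library per treatment there is no replicate check and no test, so "higher" and "lower" describe these libraries. From summed counts, fewer cells with a transcript and fewer transcripts per cell cannot be told apart. Past the fold means over 1.5-fold with an interval clear of 0, among genes with a mean of at least 2 CPM, which 28 of the 31 genes had (Tdrd6, Spocd1 and Dnmt3l did not). Of these 28 genes, 0 were higher (6.26% of all 12005 genes) and 4 were lower (6% of all), a share above the background but resting on 4 genes. The 4 were Mybl1, Piwil4, Tdrd9 and Pld6. More broadly, 25 of the 28 ratios lay below 0, against 55.8% of all genes, and their median was -0.23, against -0.04 for all genes. By role, ratios below 0 were those of 7 of 7 processing genes (median -0.23), 7 of 8 germ granule genes (-0.22), 4 of 4 other Tudor genes (-0.20), 2 of 3 PIWI genes (-0.49), 2 of 2 transcription genes (-0.76), 2 of 2 nuclear silencing genes (-0.20) and 1 of the 2 Tex19 genes (0.13). The libraries also differed in state markers: 10 undifferentiated markers summed to 285 CPM in FGF9-treated and 101 CPM in control cells, and 10 progenitor and differentiation markers to 366 and 700.2 CPM. Depth and phase, differed too, and the part of these in the ratios was not tested beyond the subsets described.

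**Figure D2:**
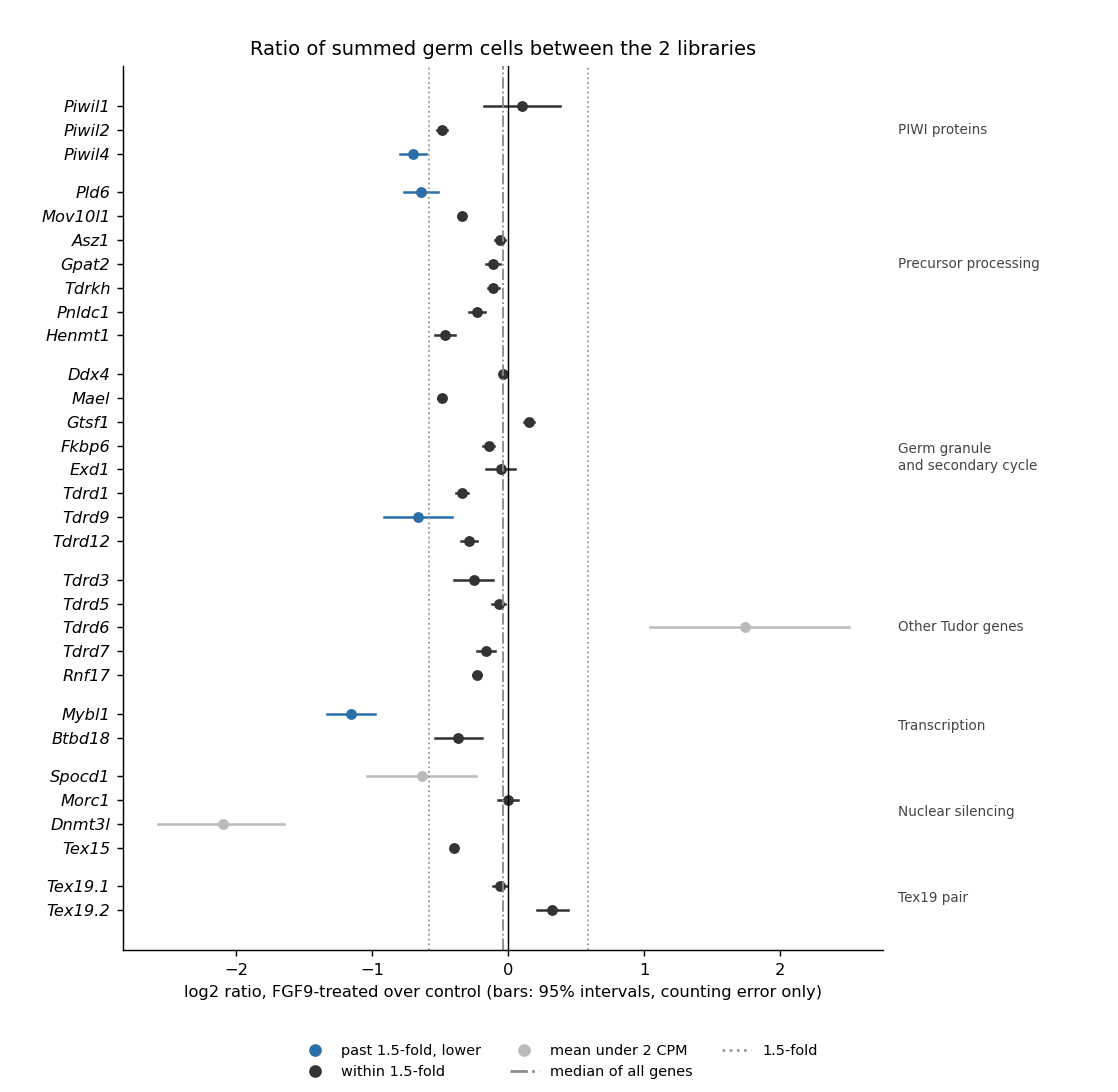
Log2 ratio of FGF9-treated over control for each of the 31 genes, with 95% intervals for counting error, dotted lines at 1.5-fold and a dash-dotted line at the median of all genes. Most points sit left of 0; Mybl1 lies farthest left among genes above 2 CPM at -1.16, and Tex19.2 and Gtsf1 lie to the right at 0.32 and 0.15.

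Mybl1 (A-MYB, chr1:9667415-9700209) had 384 UMIs or 5.73 CPM in FGF9-treated cells and 865 UMIs or 12.8 CPM in control cells, a log2 ratio of -1.16 (-1.34 to -0.98). At equal depth it was found in 2.24% (1.83 to 2.71) of FGF9-treated and 6.42% (5.70 to 7.21) of control cells. Among feeder-like cells it was found in 7.94% of FGF9-treated (5 of 63) and 3.23% of control cells (1 of 31), so feeder-like cells are no background that lacks this gene and the share in FGF9-treated germ cells cannot be read as expression from this comparison. In cells with a Mybl1 UMI the feeder list summed to 208 CPM against 192 CPM in cells without one in the FGF9-treated library, and to 131 CPM against 137 CPM in the control library, with Col3a1 at 0 in the cells with Mybl1 of both. The part of feeder RNA in the Mybl1 counts was not tested.

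The genes that went most with Mybl1 were found by comparing cells with and without a Mybl1 UMI, taking genes of at least 10 CPM and ranking them by the lower of the interval bounds of both libraries; this rule was extended to Mybl1 after its values were seen. Cdkn1a, the cell cycle inhibitor p21, led with a log2 ratio of 1.42 in FGF9-treated and 1.30 in control cells. Plk2 and Ccng1, like Cdkn1a known targets of p53, followed with 1.07 and 1.07 in FGF9-treated cells and 1.14 and 0.79 in control cells. Of the other 7, Mki67, Ube2c, Aspm, Top2a and Ccnb1 are genes of dividing cells, with Mki67 at 0.62 in FGF9-treated and 0.71 in control cells. By phase calls, G1 took 42.6% of FGF9-treated cells with Mybl1 and 46.9% of those without, and 63.9% and 62.8% in the control library. Mybl1 in S and G2/M over G1 gave 0.49 (0.18 to 0.81) in FGF9-treated and 0.09 (-0.11 to 0.29) in control cells. Cdkn1a itself was higher in the FGF9-treated library, at 22.7 CPM in FGF9-treated and 15.7 CPM in control cells, while Mybl1 was lower there. Within cells with a Cdkn1a UMI Mybl1 had 12.3 CPM in FGF9-treated and 21.4 CPM in control cells, a log2 ratio of -0.80 (-1.31 to -0.30), and within cells without one 5.18 and 12.3 CPM, a log2 ratio of -1.25 (-1.44 to -1.06). The difference between libraries was therefore seen on both sides. Feeder-like cells held 1391 CPM of Cdkn1a in the FGF9-treated and 1227 CPM in the control library.

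Piwil4 had a log2 ratio of -0.70 (-0.79 to -0.61). Tdrd9 had 217 UMIs in FGF9-treated and 347 UMIs in control cells, a log2 ratio of -0.66 (-0.92 to -0.42), and Pld6 had 864 and 1359 UMIs in them, a log2 ratio of -0.64 (-0.76 to -0.52). In cells called S or G2/M alone the ratio of Piwil4 was -0.57, and in G1 cells alone Pld6 had -0.57 and Tdrd9 -0.45, each within 1.5-fold, while Mael passed it there at -0.59. Tdrd9 also lost its call, at -0.54, when cells with over 10% mitochondrial counts were left out, whereas Mybl1 lay between -1.43 and -1.018 over 11 settings.

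Within 1.5-fold, Mael (-0.49), Piwil2 (-0.49, interval -0.52 to -0.45), Henmt1 (-0.47), Tex15 (-0.40), Btbd18 (-0.37), Mov10l1 (-0.34) and Tdrd1 (-0.34) had the lowest ratios. Btbd18, a regulator of meiotic piRNA precursor transcription, had 7.17 CPM in FGF9-treated and 9.25 CPM in control cells. Ratios close to 0 were those of Morc1 (-0.0028), Ddx4 (-0.04), Exd1 (-0.06), Asz1 (-0.06), Tex19.1 (-0.06) and Tdrd5 (-0.07). The 3 above 0 were Tex19.2 (0.32, interval 0.21 to 0.44), Gtsf1 (0.15) and Piwil1 (0.10, interval -0.18 to 0.38). The genes thus did not differ as a block, since VASA and Morc1 were near equal while MILI, MIWI2 and Maelstrom were lower.

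Below 2 CPM, Dnmt3l had a log2 ratio of -2.10 (-2.58 to -1.65), Spocd1 of -0.64 (-1.04 to -0.24) and Tdrd6 of 1.74 (1.04 to 2.503). These rest on 49 and 212, 88 and 138, and 73 and 22 UMIs in FGF9-treated and control cells, and are named after their values were seen. Overlap with another annotated gene on the same strand was listed for Piwil2, Mov10l1, Tdrkh (Gm42463), Tdrd3, Tdrd5 (A430050A11Rik), Tdrd12 and Rnf17. Overlap on the other strand alone was listed for Piwil1, Piwil4, Pnldc1, Henmt1, Tdrd9, Btbd18 and Dnmt3l (Aire). Whether counts of any of these were shared with the overlapping gene was not tested.

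Partners of the pathway had no common direction. Of 33 listed partners and further silencing genes outside the 31, all above 2 CPM, 15 had a ratio below 0, 3 were higher and 4 lower past 1.5-fold (6.26% and 6% of all genes), and their median log2 ratio was 0.01. The higher ones were Uhrf1, the partner of maintenance DNA methylation (124 CPM in FGF9-treated and 60.6 CPM in control cells, log2 ratio 1.03), Ctcfl (7.53 and 4.74 CPM, 0.67) and Nanos2 (8.99 and 5.72 CPM, 0.65), a translational regulator of undifferentiated spermatogonia. The lower ones were the histone methyltransferase Ehmt2 (130 CPM in FGF9-treated and 221.5 CPM in control cells, log2 ratio -0.77), Kif17 (-0.70), the de novo methyltransferase Dnmt3b (29.8 and 47.6 CPM, -0.68) and Mov10 (-0.65), the somatic paralogue of Mov10l1. Dnmt1 had 285 CPM in FGF9-treated and 206 CPM in control cells (0.47) and Dnmt3a 54.9 and 73.7 CPM (-0.43). Trim28 and Setdb1, the corepressor and histone methyltransferase of a separate silencing route, had ratios of -0.16 and -0.04.

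Cell state was read from 5 marker classes within each library: cells with Gfra1 and Ret both found, the receptor of GDNF in the most undifferentiated spermatogonia, and cells with Sox3, Neurog3, Kit or Stra8, which mark progenitors and differentiating spermatogonia. Each class was set against the other cells of its library. Cells with Gfra1 and Ret numbered 517 in the FGF9-treated and 101 in the control library, and cells with Neurog3 302 and 760. Cells with Sox3 numbered 670 and 1429, cells with Kit 52 and 242, and cells with Stra8 118 and 125 in FGF9-treated and control. The FGF9-treated library thus had more Gfra1 and Ret cells and fewer Sox3, Neurog3 and Kit cells. These markers also differ in level between libraries, with Ret at 104 CPM in FGF9-treated and 34.9 CPM in control cells. Sox3 had 37.3 and 98.2 CPM in them. The study reports higher stem cell markers in progenitor and differentiating cells as well. Class size therefore cannot tell a changed mix of states from markers that changed within states.

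Piwil4 was higher in the Gfra1 and Ret cells of both libraries. In the FGF9-treated library these cells had 26.1 CPM against 21.3 CPM in the other cells, a log2 ratio of 0.29 (0.07 to 0.51). In the control library they had 48.7 CPM against 35.2 CPM, a log2 ratio of 0.47 (0.12 to 0.80), which was 0.83 with another random thinning and 0.52 with classes drawn from all UMIs. Fewer of these cells were called S or G2/M, 45.8% against 54.2% of the other cells in the FGF9-treated and 29.7% against 37.3% in the control library, and in G1 cells alone the Piwil4 ratios were 0.31 and 0.40. Control Kit cells had 27.8 CPM of Piwil4 against 36.0 CPM in cells without Kit, a log2 ratio of -0.37 (-0.66 to -0.10), with -0.66 under the other thinning and -0.29 from all UMIs. In the FGF9-treated library only 52 cells had Kit and 17 UMIs of Piwil4 fell in them, too few to read a direction (-0.18, interval -0.96 to 0.51). For Neurog3 the ratios were -0.23 (-0.56 to 0.10) in FGF9-treated and -0.18 (-0.34 to -0.02) in control cells, and for Sox3 and Stra8 the intervals held 0 in both libraries.

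**Figure D3:**
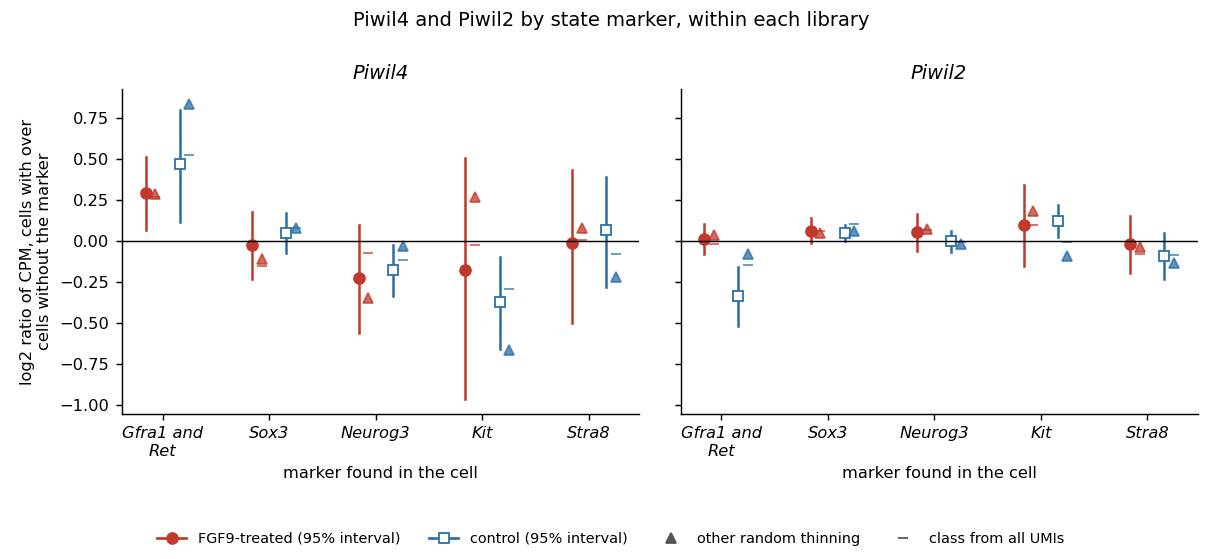
Log2 ratio of CPM in cells with over cells without each state marker, for Piwil4 on the left and Piwil2 on the right, with FGF9-treated left of control and 95% intervals for counting error. Triangles and dashes give the value with another random thinning and with classes drawn from all UMIs; Piwil4 lies above 0 for Gfra1 and Ret in both libraries under all 3, whereas Piwil2 lies at 0.01 in FGF9-treated and -0.33 in control cells there, the control value nearer 0 under the other drawings.

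Piwil2 showed little relation to state. In the Gfra1 and Ret cells it had 151 CPM against 150 CPM in the other FGF9-treated cells (0.01, interval -0.08 to 0.10) and 168 CPM against 211 CPM in the control library (-0.33, interval -0.52 to -0.16), and the control value shrank to -0.08 with another thinning and -0.14 from all UMIs. In control Kit cells it had 228 CPM against 209 CPM (0.12, interval 0.02 to 0.22), which turned to -0.09 with another thinning and was -0.0027 from all UMIs. In FGF9-treated Kit cells the ratio was 0.10 (-0.15 to 0.34). In the other 3 classes its ratios lay between -0.09 and 0.06 in both libraries. No member was past 1.5-fold in the same class and direction in both libraries.

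Single members passed 1.5-fold in a class of 1 library, on few UMIs. In the FGF9-treated library Tdrd9 was higher in the Gfra1 and Ret cells (34 UMIs, log2 ratio 0.59, 1.06% of all genes higher there), in Neurog3 cells (23 UMIs, 0.75, 0.967%) and in Stra8 cells (12 UMIs, 1.01, 1.05%), and Pld6 was lower in Kit cells (4 UMIs, -1.51, 1.83%). In the control library Dnmt3l was higher in Gfra1 and Ret cells (14 UMIs, 1.60, 3.92%) and in Stra8 cells (18 UMIs, 1.53, 1.03%), while Mybl1 (16 UMIs, -0.77) and Piwil1 (0 UMIs) were lower in Stra8 cells (0.985%). These are 1 or 2 members at a time, and nothing is read from their number. Where 0 members passed in FGF9-treated cells, the share of all genes was 0.733% higher and 0.742% lower for Sox3, 2.46% higher for Kit, and 0.6%, 0.883% and 1.03% lower for Gfra1 and Ret, Neurog3 and Stra8. In control cells it was 2.92% lower for Gfra1 and Ret, 0.3% higher and 0.517% lower for Neurog3, 0.234% higher and 0.434% lower for Sox3, and 1.15% higher and 1.03% lower for Kit.

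The ratio of Piwil4 between libraries was also taken within cells of like marker status. Like marker status need not mean like state, because the markers themselves differ between libraries. Within the Gfra1 and Ret cells Piwil4 had 26.1 CPM in FGF9-treated and 48.7 CPM in control cells, a log2 ratio of -0.90 (-1.29 to -0.49), and within the cells without them 21.3 and 35.2 CPM (-0.72, interval -0.82 to -0.63). Over 13 subsets of cells (with and without each class, and 3 phases) the ratio of Piwil4 lay between -0.90 and -0.41. That of Mybl1 lay between -1.92 and -0.70, and that of Piwil2 between -0.61 and -0.15. All 3 ratios were below 0 in all 13 subsets, which share cells with each other. Intervals held 0 for Mybl1 in cells with Gfra1 and Ret (-1.58 to 0.25), Kit (-1.99 to 0.36) and Stra8 (-2.56 to 0.32). They also held 0 for Piwil4 in cells with Kit (-1.35 to 0.22) and for Piwil2 in cells with Gfra1 and Ret (-0.34 to 0.05).

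A wider view came from a score per thinned cell, the UMIs of 10 undifferentiated markers (Gfra1, Ret, Etv5, Id4, Tspan8, Esrp1, Bcl6b, Eomes, Nanos2 and T) minus those of 10 progenitor and differentiation markers (Kit, Sohlh1, Crabp1, Lmo1, Sox3, Neurog3, Upp1, Stra8, Dnmt3b and Rarg), cut into 4 bins within each library. The score takes few values, and 2170 FGF9-treated and 1850 control cells lay on a cut, so the bins are ranges and not cell types. Lower values at every step towards the undifferentiated end in both libraries were seen for 6 of the 28 genes (3.14% of all genes): Tex19.1, Tex19.2, Fkbp6, Henmt1, Mov10l1 and Btbd18. This rule takes point values without their intervals. For Btbd18 the log2 ratio of bin 4 over bin 1 was -0.62 (-0.996 to -0.24) in FGF9-treated cells. In control cells it was -0.21 (-0.52 to 0.11), an interval that held 0. Higher values at every step were seen for 0 (3.66% of all genes).

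The Tex19 pair changed most along this score. Tex19.1 had 124, 96.8, 90.7 and 74.1 CPM in bins 1 to 4 of the FGF9-treated library and 127, 102, 90.8 and 74.5 CPM in those of the control library. Tex19.2 had 29.6, 21.2, 18.9 and 15.6 CPM in FGF9-treated and 21.8, 17.5, 15.1 and 11.9 CPM in control bins. The log2 ratio of bin 4 over bin 1 was -0.74 (-0.85 to -0.64) and -0.77 (-0.87 to -0.67) for Tex19.1 and -0.92 (-1.15 to -0.70) and -0.87 (-1.12 to -0.63) for Tex19.2, in FGF9-treated and control cells. Both genes thus stood higher at the low end of the score in both libraries. The marker classes gave a mixed picture: with over without Sox3 gave 0.36 and 0.23 for Tex19.1 and 0.54 and 0.27 for Tex19.2 in FGF9-treated and control cells, whereas Kit gave -0.02 and -0.08 for Tex19.1 and -0.07 and -0.0006 for Tex19.2. For Tex19.1 Neurog3 gave -0.07 (-0.22 to 0.08) in FGF9-treated and 0.20 (0.11 to 0.29) in control cells. The share of cells called S or G2/M moved with it in the FGF9-treated library (62.5% in bin 1 and 47.3% in bin 4) and hardly in the control library (36.0% and 38.0%).

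Fkbp6 had a smaller range, with 172 CPM in bin 1 and 131 CPM in bin 4 of the FGF9-treated library and 174 and 146 CPM in the control library. Mael had 288 CPM in bin 1 and 212 CPM in bin 4 of the FGF9-treated library, a log2 ratio of -0.44, and 358 and 327 CPM in the control library, a ratio of -0.13. Piwil2 had 164 and 144 CPM in bins 1 and 4 of FGF9-treated cells, a log2 ratio of -0.18 (-0.27 to -0.10). In those of control cells it had 215 and 206 CPM (-0.06, interval -0.13 to 0.0035). Piwil4 ran the other way in the control library, from 31.8 CPM in bin 1 to 36.9 CPM in bin 4 (0.21, interval 0.05 to 0.38), and was flat in the FGF9-treated one (0.03, interval -0.20 to 0.26).

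**Figure D4:**
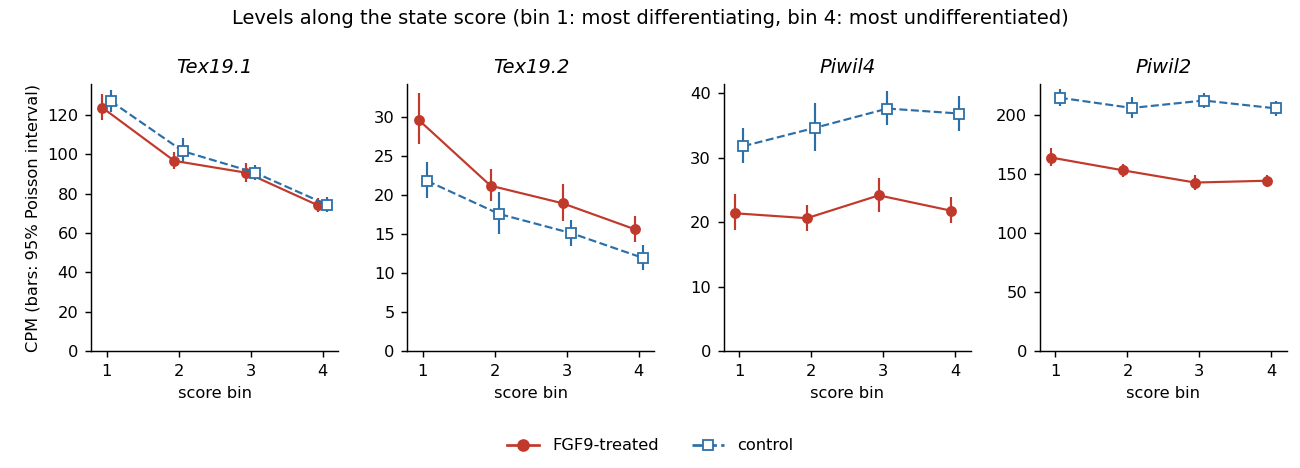
CPM of Tex19.1, Tex19.2, Piwil4 and Piwil2 in 4 bins of the state score, from the most differentiating (1) to the most undifferentiated (4), for FGF9-treated (filled circles) and control (open squares) cells with 95% Poisson intervals. Both Tex19 genes decline from bin 1 to bin 4 in both libraries, whereas for Piwil4 and Piwil2 the gap between the libraries is wider than the change along the score.

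Phase was called with the S and G2/M gene lists of Seurat. G1 was called in 46.8% (45.4 to 48.3) of FGF9-treated and 63.0% (61.5 to 64.5) of control cells, S in 23.9% and 9.74%, and G2/M in 29.2% and 27.2%, with 41.2% and 49.8% of FGF9-treated and control cells within 0.05 of a limit. Piwil4 was highest in G1 in both libraries. It had 24.8, 18.8 and 20.6 CPM in G1, S and G2/M of FGF9-treated cells and 39.4, 25.04 and 30.8 CPM in control cells, and S and G2/M together over G1 gave log2 ratios of -0.32 (-0.47 to -0.17) and -0.42 (-0.55 to -0.30). With Piwil4, 6 of the 28 genes above 2 CPM were lower in S and G2/M by more than 0.1 in both libraries (17.3% of all genes), the others being Asz1, Henmt1, Gtsf1, Exd1 and Tdrd12. Higher by more than 0.1 in both were 2 (15.8% of all genes), Tdrkh by 0.30 in FGF9-treated and 0.12 in control cells and Btbd18 by 0.19 and 0.20, with intervals that held 0 for Btbd18. These shares are close to or below those of all genes.

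**Figure D5:**
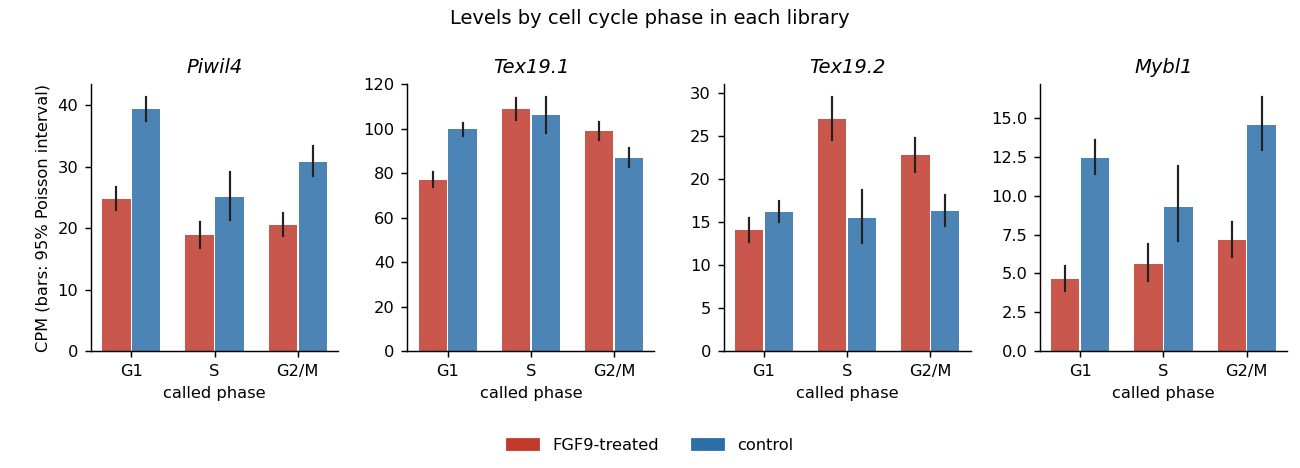
CPM of Piwil4, Tex19.1, Tex19.2 and Mybl1 in cells called G1, S and G2/M, with FGF9-treated bars left of control bars and 95% Poisson intervals. Piwil4 is highest in G1 of both libraries, and Mybl1 is lower in FGF9-treated cells in every phase. Both Tex19 genes are clearly higher in S and in G2/M than in G1 in the FGF9-treated library. In the control library Tex19.1 is higher in S (106 against 99.7 CPM in G1) but lower in G2/M (86.9 CPM), and Tex19.2 is nearly level.

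The Tex19 pair depended on phase in the FGF9-treated library. Tex19.1 had 77.1, 109 and 99.1 CPM in G1, S and G2/M of FGF9-treated cells and 99.7, 106 and 86.9 CPM in control cells. Tex19.2 had 14.1, 27.0 and 22.8 CPM in FGF9-treated and 16.2, 15.5 and 16.3 CPM in control cells. S and G2/M over G1 gave 0.42 (0.34 to 0.50) and 0.80 (0.63 to 0.98) for Tex19.1 and Tex19.2 in FGF9-treated cells, and -0.12 (-0.19 to -0.05) and -0.01 (-0.19 to 0.16) in control cells. The near-equal level of Tex19.1 in both libraries thus hides opposite ratios by phase, with -0.37 in G1 and 0.19 in G2/M.

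The 10 genes most like Piwil4, ranked in the same way by cells with against cells without a Piwil4 UMI (463 and 4052 FGF9-treated cells, 640 and 3501 control cells), were Dlgap1, Prmt2, Col18a1, Apoe, Skap2, Cln3, Pou2f2, Neb, Oasl2 and Smarcd3. Dlgap1 led with log2 ratios of 0.54 in FGF9-treated and 0.47 in control cells. Gfra1 had 0.29 and 0.39 in them, Ret 0.07 (interval from -0.04) and 0.41 (from 0.27), Gtsf1 0.18 and 0.19, Tdrd1 0.15 and 0.20, and Upp1 0.20 and 0.35. Kit had -0.53 (interval from -1.40) and -0.25 (from -0.54). Only lower bounds were kept for these ratios, so no direction is read for Kit. Sohlh1 had 0.22 in FGF9-treated and -0.16 in control cells, so markers of progenitors and differentiation went either way. Among members with under 10 CPM, Tdrd9 had 0.31 and 0.39 and Dnmt3l 0.54 and 0.98, on few UMIs. For Piwil2 (2315 with and 2200 without in FGF9-treated, 2562 and 1579 in control cells) the list held Gm10125, Malat1, Dst, Tex15, Wdr19, Ccdc88c, D10Wsu102e, Psd3, Hnrnpul2 and Dync1h1. Tex15 stood at 0.34 in FGF9-treated and 0.23 in control cells, and the nuclear RNA Malat1 at 0.22 and 0.25. Of the state markers, Gfra1 had -0.10 in FGF9-treated and -0.18 in control cells and Ret 0.07 and -0.0024. Sohlh1 had 0.33 and 0.05, Sox3 0.03 and 0.10, and Kit 0.10 and 0.06.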

How the data were processed

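Single-cell RNA-seq was available for 1 FGF9-treated and 1 control library. The deposited matrices hold raw UMI counts of each gene in each barcode. The authors obtained them with Cell Ranger (3.1.0 in the matrix header) on mm10, before their own cell filter, and the submitters' notes name Seurat 3.1 for later steps. The counts of the KIT antibody tag were not used, and 0 columns of per-sample values belonged to no sample.

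UMIs were summed over kept germ cells and divided by their total. Intervals at 95% (Poisson, conditional binomial and Clopper-Pearson) and the limit of 3 counts for a value of 0 cover counting error only. Cells were thinned to 5000 UMIs with a fixed seed. Phases came from unthinned germ cells with the 43 S and 54 G2/M genes of Seurat 5.3.0, and a cell near a limit had its S or G2/M score within 0.05 of 0. No doublet caller was run. Cells with over 2.5 times the median UMIs were left out as an alternative. Python 3.11.15, numpy 2.4.6, scipy 1.17.1, R 4.3.3, edgeR 4.0.16 (TMM factors) and DESeq2 1.42.0 (size factors) were used, the last 2 for scaling alone. The ratio script was tested on simulated data.

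No test across libraries was possible with 1 library per group. Genes named with values were the 3 PIWI genes, Mybl1, members past 1.5-fold with a mean of at least 2 CPM, the 10 highest members by CPM and others singled out after their values were seen. The members, roles, partners and marker lists were chosen with earlier results of these data known. Alternatives changed the low-value filter (none, 10 CPM), the fold (1.25, 2), scaling, cell filters (3000 genes, 10% mitochondrial counts, fibroblast limit of 10 or none), the weighting of cells, phase, the thinning (8000 UMIs, none, another seed) and the classes. Drawing classes from all UMIs, and splitting cells by Cdkn1a, were added after seeing the data.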

Additional observations from a re-analysis of the deposited data

Results flagged for a closer look

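The ratio of FGF9-treated over control had opposite signs in groups of cells for 3 genes, and in no case was the difference between the groups tested, since each value rests on 1 library per treatment. Gtsf1 had 210 CPM in FGF9-treated and 246 CPM in control cells with Gfra1 and Ret, a log2 ratio of -0.23, but 199 and 178 CPM in the other cells, a log2 ratio of 0.16. Tex19.1 had a log2 ratio of -0.37 in cells called G1 and 0.19 in cells called G2/M. Tex19.2 had -0.21 in G1, 0.80 in S and 0.48 in G2/M cells. The FGF9-treated library had 1086 cells called S and the control library 405, and the part of the phase calls in these values was not tested.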

How the results depend on the processing

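No paired analysis was possible because there was 1 library per treatment, and for the same reason no library could be left out. Of the values that answer a comparison, 121 kept their direction and size under the alternatives, 17 moved and 2 changed sign, and of the values for single genes 347 kept them, 163 moved and 2 changed sign. The count of 4 members lower in the FGF9-treated library became 2 (Piwil4 and Pld6) with a mean of at least 10 CPM, 11 at a smaller fold threshold and 1 (Mybl1) at a fold of 2, and was 6 without the low-value filter. The count of 0 higher became 1 with no filter (Tdrd6), 1 at the smaller fold and 1 in S or G2/M cells alone (Tex19.2 each time). No share of all genes at these settings is set beside these counts, so nothing is read from their size. TMM and DESeq2 factors shifted all ratios by 0.03 and 0.01 and moved no member across the fold. Tex19.2 turned to -0.21 in G1 cells alone and Tex19.1 to 0.17 in S or G2/M cells alone. Members found in at least 50% of cells numbered 16 in FGF9-treated and 18 in control cells with no thinning.

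Class ratios depended on the draw of the thinning, since classes are small. With another thinning, control Piwil4 had 0.83 for Gfra1 and Ret and -0.66 for Kit, and control Piwil2 had -0.080 and -0.088. With 8000 UMIs, control Piwil2 had -0.12 for Gfra1 and Ret and FGF9-treated Piwil2 -0.017 for Sox3. With classes from all UMIs, control Piwil2 had -0.14 for Gfra1 and Ret, 0.11 for Sox3 and -0.0027 for Kit. In G1 cells alone, FGF9-treated Piwil4 had -1.17 for Kit and -0.90 for Stra8. The cause of these shifts was not tested.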
